A study of Mus musculus with 12 samples.

Results

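The transcripts described here are 10 genes of the circadian clock, Arntl, Clock, Nr1d1, Nr1d2, Dbp, Tef, Per1, Per2, Per3 and Cry1, taken by symbol from a table of 52459 genes. Each of the 10 symbols had 1 row, and all 10 passed the filter on low values and were tested. The samples were choroid plexus, the secretory tissue of the brain ventricles, dissected from mice labelled B6. The 4 ages were E12.5 embryos, newborns (P0), pups at postnatal day 14 (P14) and 6-month adults (A6m), each with 3 libraries. All 4 groups are untreated animals with no transgene or mutation in their labels, and the tissue went straight into Trizol. The labels give no time of day, no light schedule, no sex and no ventricle, and they do not say whether a specimen was 1 animal or a pool. Values are TPM, a share of all transcripts that adjusts for transcript length and sets each library to the same sum, so levels of different genes can be compared.

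The mammalian clock is a loop of transcription. The proteins of Arntl (BMAL1) and Clock pair and bind E-box elements of DNA, where they switch on the Period and Cryptochrome genes, whose proteins then block that pair. The same pair drives Nr1d1 and Nr1d2, which encode the nuclear receptors REV-ERB alpha and beta, and these repress Arntl through ROR response elements (ROREs), on which the ROR receptors activate. Dbp and Tef encode PAR bZIP factors that carry the rhythm to other genes through D-box elements. In adult tissues with a running clock the transcripts of Nr1d1, Dbp and the Period genes peak at other hours than that of Arntl, and the choroid plexus of adult rodents is known to hold such a clock. Because the hour of dissection is not given, a difference between ages and a difference between hours of dissection cannot be told apart in any of the results that follow. In bulk tissue, fewer cells of a type and less RNA per cell cannot be told apart either.

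All 10 markers of the choroid plexus epithelium on the list used reached a mean of 1 TPM at each age, and together they held 12900 to 23788 TPM in the E12.5 libraries, 148790 to 150470 at P0, 179910 to 195210 at P14 and 172590 to 178800 at A6m. Most of that sum was Ttr, with means of 15444, 141940, 161620 and 141050 TPM at E12.5, P0, P14 and A6m, so the sum mostly follows that 1 gene. Of the 10 markers, 9 were called higher for P0 against E12.5 and 0 lower (18.6% and 43.7% of all tested genes). For A6m against E12.5, 6 were called higher and 0 lower (15.2% and 62.0%). E12.5 replicate 1 stood apart, with 93141 TPM in the single feature Mir6236, and it was the lowest of the E12.5 libraries for 66.6% of tested genes. Xist, transcribed from the inactive X chromosome, was at 148 to 155 TPM at A6m and at most 0.808 TPM at P0 and P14. In E12.5 replicates 1, 2 and 3 it was at 139, 0.389 and 89.5 TPM. Ddx3y, a gene of the Y chromosome, was at 108 to 117 TPM at P0, 80.1 to 93.2 at P14 and 0.122 to 0.366 at A6m. In E12.5 replicates 1, 2 and 3 Ddx3y was at 9.26, 54.4 and 50.9 TPM, so replicates 1 and 3 held both transcripts. Sex thus cannot be told apart from age in A6m against P14. A6m against E12.5 and P0 against E12.5 differ in these 2 transcripts too, for Xist not in every library. None of the 10 clock genes lies on a sex chromosome, but whether they differ with sex was not tested. Over the 17422 genes tested, the log2 difference had a median of -0.27 for P0 against E12.5, -0.41 for P14 against P0, -0.04 for A6m against P14 and -0.71 for A6m against E12.5. Values were therefore also computed with median-of-ratios scaling of the libraries, called scaling below, under which these medians lay between -0.02 and 0.00.

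Binding elements of the loop are visible in the letters of some of the members' own promoters. RefSeq windows on GRCm38.p6, from 250 bases before to 50 bases after a transcript start, were at hand for 9 of the 10 genes (14 windows), and the 10th, Per2, is only named. The 4 windows with matches that show the loop's elements most plainly are printed 5′ to 3′ in the direction of the gene, with matches in capitals. Arntl (chr7:113207261-113207560, plus strand) holds a RORE, Per3 (chr4:151044616-151044915, minus strand) a pair of D-boxes, Per1 (chr11:69098699-69098998, plus strand) an E-box followed by a D-box, and Cry1 (chr10:85185005-85185304, minus strand) an E'-box followed by an E-box.
Arntl: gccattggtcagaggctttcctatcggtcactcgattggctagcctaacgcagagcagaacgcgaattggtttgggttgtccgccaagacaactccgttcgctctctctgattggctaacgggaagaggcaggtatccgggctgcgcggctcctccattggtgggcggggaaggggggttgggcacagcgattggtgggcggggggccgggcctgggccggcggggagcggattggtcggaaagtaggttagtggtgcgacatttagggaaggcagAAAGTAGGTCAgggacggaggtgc
Per3: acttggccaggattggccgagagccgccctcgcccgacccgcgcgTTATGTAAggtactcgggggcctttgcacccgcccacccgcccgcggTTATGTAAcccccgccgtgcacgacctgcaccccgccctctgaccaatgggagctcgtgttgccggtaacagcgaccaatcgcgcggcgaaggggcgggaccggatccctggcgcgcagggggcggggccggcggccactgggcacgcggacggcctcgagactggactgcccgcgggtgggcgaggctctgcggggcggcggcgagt
Per1: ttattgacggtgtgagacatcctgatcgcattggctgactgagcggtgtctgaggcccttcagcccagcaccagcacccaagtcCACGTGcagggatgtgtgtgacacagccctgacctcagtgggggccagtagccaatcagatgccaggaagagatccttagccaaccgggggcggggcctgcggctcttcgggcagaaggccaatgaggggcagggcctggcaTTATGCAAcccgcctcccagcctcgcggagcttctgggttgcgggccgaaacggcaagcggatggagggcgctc
Cry1: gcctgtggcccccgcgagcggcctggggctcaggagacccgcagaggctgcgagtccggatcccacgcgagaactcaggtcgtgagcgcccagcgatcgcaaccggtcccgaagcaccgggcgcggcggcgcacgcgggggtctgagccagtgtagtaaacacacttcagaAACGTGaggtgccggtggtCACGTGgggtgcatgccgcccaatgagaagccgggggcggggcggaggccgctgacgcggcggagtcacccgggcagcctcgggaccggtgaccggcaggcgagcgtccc

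The motifs searched, on both strands, were the E-box CACGTG, the E'-box CACGTT, the D-box TTATGNAA, the cyclic AMP response element TGACGTCA and the RORE, and no match overlaps another in the 4 windows printed. The E'-box of Cry1 lies on the other strand and so reads AACGTG as printed. The RORE of Arntl reads AAAGTAGGTCA and starts at base 277 of its window. An RORE was found in 1 of 14 member windows and in 0.384% of all 32851 windows. E-boxes were found in the windows of 3 of 9 genes (Tef, Per1 and Cry1), against 8.09% of all genes with a window, E'-boxes in 2 of 9 (Nr1d1 and Cry1), against 5.44%, and D-boxes in 2 of 9 (Per1 and Per3), against 3.99%. The cyclic AMP response element was in 0 of 9, against 2.03%. The windows of Clock, Nr1d2 and Dbp held no match to any of these motifs. A match is a description of letters and not a bound site, and elements outside these 300 bases were not searched.

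**Figure D1:**
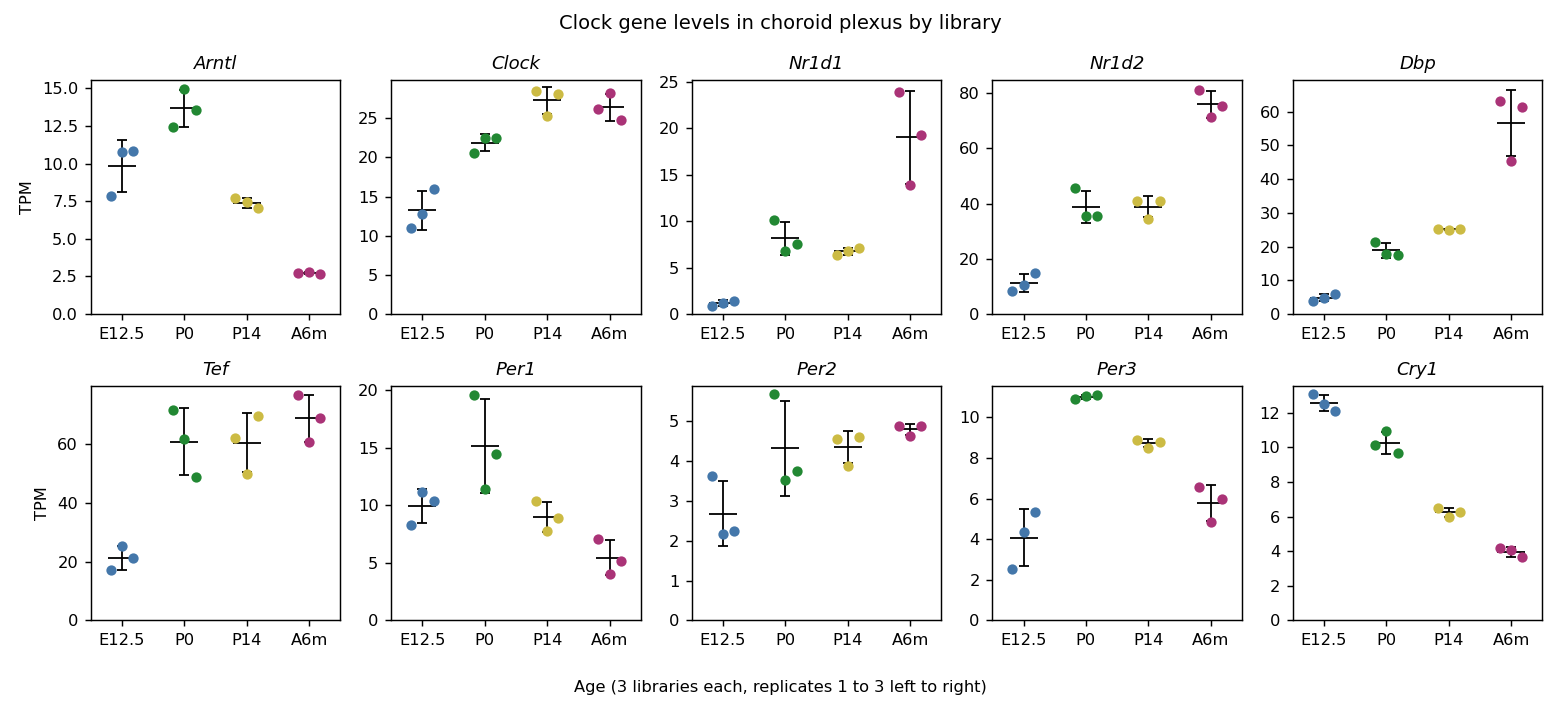
TPM (linear axis from 0) of the 10 clock genes by age, with 1 coloured point per library (replicates 1 to 3 from left to right) and a black bar at the mean ± SD of 3 libraries. Nr1d1, Nr1d2 and Dbp are highest at A6m, Arntl and Cry1 lowest there, and Per1 and Per3 have their highest means at P0.

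Arntl and Clock, whose proteins form the activating pair, went different ways with age. Arntl (chr7:113207465-113314126, plus strand, GENCODE M21) had 7.86, 10.8 and 10.9 TPM in E12.5 replicates 1 to 3, 12.4, 15.0 and 13.6 TPM at P0, 7.71, 7.44 and 7.02 TPM at P14, and 2.75, 2.82 and 2.69 TPM at A6m. The A6m libraries lay below all others and close to each other, the P0 libraries lay above all others, and E12.5 and P14 came between, where E12.5 replicate 1 lay just above the highest P14 library. Clock (chr5:76209868-76304792, minus strand) had 10.97, 12.8 and 15.9 TPM at E12.5, 20.6, 22.5 and 22.5 TPM at P0, 28.4, 25.3 and 28.1 TPM at P14, and 26.1, 28.3 and 24.8 TPM at A6m. The ages followed the order E12.5, P0 and then P14 with A6m, which overlapped each other. The level of Clock was thus 9.58 ± 0.395 times that of Arntl within A6m libraries, against 1.35 ± 0.143 times within E12.5 libraries (SD, n = 3 each).

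The REV-ERB genes, repressors of Arntl, were lowest in the embryo and highest in the adult. Nr1d1 (chr11:98767932-98775333, minus strand) had 0.836, 1.22 and 1.44 TPM at E12.5, 10.2, 6.82 and 7.48 TPM at P0, 6.34, 6.82 and 7.10 TPM at P14, and 23.9, 13.8 and 19.3 TPM at A6m. P0 and P14 overlapped, and the A6m libraries were above both although they differed by 1.73-fold among themselves. Nr1d2 (chr14:18204054-18239127, minus strand) had 8.34, 10.7 and 14.8 TPM at E12.5, 45.6, 35.6 and 35.4 TPM at P0, 41.1, 34.6 and 41.1 TPM at P14, and 81.3, 71.5 and 75.6 TPM at A6m. It showed the same order of ages, with P0 and P14 overlapping. Exons of Nr1d1 share 263 bases with those of Thra, a thyroid hormone receptor gene on the opposite strand, and the strand setting of the quantification is not given, so part of the Nr1d1 value may belong to Thra. Thra itself was at 48.0 ± 11.8, 63.3 ± 3.14, 40.3 ± 1.90 and 29.2 ± 3.28 TPM at E12.5, P0, P14 and A6m (SD, n = 3 each), and was thus lowest at A6m, where Nr1d1 was highest.

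The PAR bZIP genes were likewise higher in the adult than in the embryo, Dbp by more than Tef. Dbp (chr7:45705088-45710203, plus strand) had 3.77, 4.72 and 5.89 TPM at E12.5, 21.5, 17.8 and 17.4 TPM at P0, 25.2, 24.9 and 25.3 TPM at P14, and 63.0, 45.5 and 61.4 TPM at A6m. No library of one age overlapped with a library of another, and the order was E12.5, P0, P14, A6m. Tef (chr15:81802421-81826863, plus strand) had 17.3, 25.2 and 21.4 TPM at E12.5, 71.7, 61.8 and 48.9 TPM at P0, 62.2, 49.7 and 69.4 TPM at P14, and 76.6, 60.7 and 69.0 TPM at A6m. Its embryonic libraries lay below all others, while P0, P14 and A6m overlapped. Within a library the ratio of Dbp to Tef was 0.227 ± 0.0448 in E12.5 tissue, 0.314 ± 0.0362 at P0, 0.423 ± 0.0711 at P14 and 0.821 ± 0.0703 in A6m tissue (SD, n = 3 each). Exons of Dbp share 539 bases with Sphk2, a sphingosine kinase gene on the opposite strand, which was at 6.40 ± 0.320 TPM at A6m and 8.82 ± 0.837 TPM at E12.5 (SD, n = 3 each).

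Among the repressors of the activating pair, each Period gene had its own course. Per1 (chr11:69095217-69109960, plus strand) had 8.31, 11.1 and 10.3 TPM at E12.5, 19.5, 11.4 and 14.5 TPM at P0, 10.4, 7.75 and 8.87 TPM at P14, and 7.06, 4.07 and 5.16 TPM at A6m. P0 replicate 1 was 1.71-fold above P0 replicate 2, the lowest P0 library lay just above the highest E12.5 library, and the A6m libraries lay below all others. Per2 (chr1:91415982-91459324, minus strand) had 3.62, 2.17 and 2.24 TPM at E12.5, 5.68, 3.52 and 3.74 TPM at P0, 4.55, 3.88 and 4.59 TPM at P14, and 4.86, 4.61 and 4.88 TPM at A6m. Its P0 range overlapped with that of every other age, while P14 and A6m lay just apart and both above E12.5. Per3 (chr4:151003652-151044665, minus strand) had 2.55, 4.34 and 5.34 TPM at E12.5, 10.9, 11.04 and 11.1 TPM at P0, 8.89, 8.51 and 8.81 TPM at P14, and 6.59, 4.84 and 5.97 TPM at A6m. It was highest at P0 and next at P14, without overlap, while the E12.5 and A6m libraries overlapped.

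Cry1 (chr10:85131700-85185064, minus strand), a cryptochrome gene, was the member with an order that only descended. It had 13.1, 12.51 and 12.1 TPM at E12.5, 10.1, 10.9 and 9.69 TPM at P0, 6.50, 5.99 and 6.28 TPM at P14, and 4.19, 4.09 and 3.64 TPM at A6m. None of these ages overlapped with another. The residual spread of Cry1 within ages was 0.07 on the log2 scale, and 2.47% of tested genes had a lower one.

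Between E12.5 and birth most of the clock genes rose together. All 10 members passed the test, 9 higher and 1 lower at P0, against 62.3% of all tested genes called, 18.6% higher and 43.7% lower. With scaling 9 rose and 0 fell, against 60.0% of all tested genes, 29.0% higher and 31.0% lower. The libraries of both ages did not overlap for 9 of 10 members, against 62.7% of all tested genes. Nr1d1 was at 8.15 ± 1.77 TPM at P0 and 1.17 ± 0.306 TPM at E12.5, a log2 difference of 2.07 (SE 0.19, adjusted p = 4.52e-06). Dbp was at 18.9 ± 2.23 and 4.79 ± 1.06 TPM at P0 and E12.5 (log2 difference 1.79, SE 0.15, adjusted p = 2.15e-06). The log2 differences of Nr1d2, Tef and Per3 were 1.73 (SE 0.17, adjusted p = 6.69e-06), 1.47 (SE 0.18, adjusted p = 2.78e-05) and 1.28 (SE 0.18, adjusted p = 9.49e-05). Clock rose by 0.70 (SE 0.12, adjusted p = 3.06e-04) and Arntl by 0.45 (SE 0.12, adjusted p = 0.00697). The adjusted p-values here and below are those of limma with Benjamini-Hochberg adjustment over all 17422 genes, and values after ± are SDs of 3 libraries.

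Of these calls at birth, 3 were less firm. Per1, at 15.1 ± 4.10 TPM at P0 and 9.93 ± 1.46 TPM at E12.5, passed with a log2 difference of 0.54 (adjusted p = 0.0435). That call was lost in 10 of 22 alternatives. It was lost without E12.5 replicate 1 or 3, P0 replicate 1 or 3, P14 replicate 3 or A6m replicate 3 (adjusted p = 0.0564 to 0.173). A pseudocount of 0.1, no filter on low values, a fit to just the 6 libraries and array weights lost it too (adjusted p = 0.0505 to 0.119). It held with scaling (0.79, adjusted p = 0.00458). Per2, at 4.31 ± 1.19 and 2.68 ± 0.819 TPM at P0 and E12.5, passed with 0.53 (adjusted p = 0.0222). Its call was lost without E12.5 replicate 2 or 3 or P0 replicate 1 (adjusted p = 0.0746 to 0.0926). A fit to just the 6 libraries lost it too (adjusted p = 0.0907). Cry1, the member that fell, averaged 10.3 ± 0.633 TPM at P0 and 12.6 ± 0.475 TPM at E12.5 (-0.27, adjusted p = 0.0144), close to the median of all genes. With scaling its difference was -0.01 (adjusted p = 0.951), and with quantile normalization 0.04 (adjusted p = 0.758). Without the 10 most abundant genes the call was lost too. Its adjusted p was 0.0602 without P0 replicate 3 and 0.0596 in a fit to just the 6 libraries. The median over the 10 members was 0.99, against -0.27 over all tested genes.

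**Figure D2:**
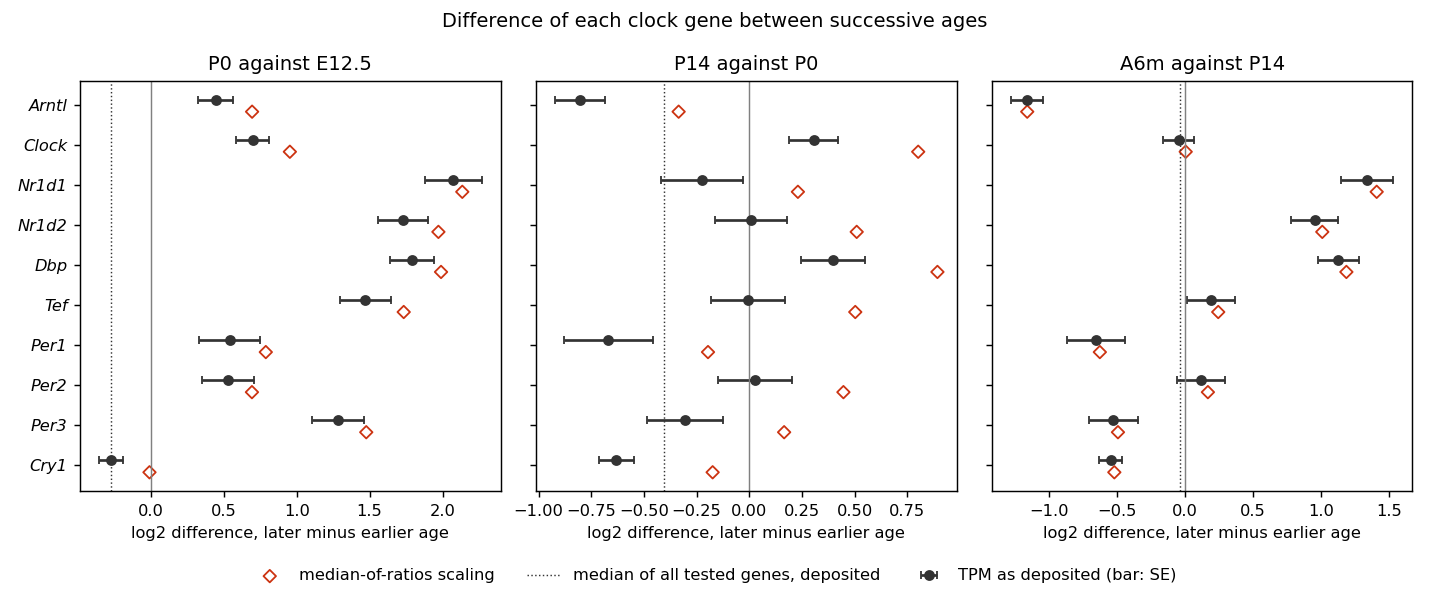
Log2 difference of each clock gene (x axis, later minus earlier age, separate scale per panel) for 3 successive comparisons, from TPM as deposited (filled circles with SE bars) and with median-of-ratios scaling (open diamonds). The dotted line marks the median of all tested genes on the deposited scale. In the first panel 9 of 10 members lie right of 0 on both scales, and in the last panel Nr1d1, Nr1d2 and Dbp lie right of it and Arntl, Per1, Per3 and Cry1 left of it.

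Between birth and P14 the clock genes separated, with Arntl falling while Clock and Dbp moved up relative to other genes. The test called 5 of 10 members, 2 higher and 3 lower at P14, against 58.8% of all tested genes called, 5.33% higher and 53.5% lower. With scaling 4 rose and 1 fell, against 42.5% of all tested genes, 22.7% higher and 19.8% lower, and 6 of 10 members did not overlap as deposited, against 69.3%. Arntl was at 7.39 ± 0.346 TPM at P14 and 13.7 ± 1.26 TPM at P0 (log2 difference -0.80, SE 0.12, adjusted p = 2.50e-04), and it fell with scaling too (-0.34, adjusted p = 0.00669). Clock was at 27.3 ± 1.73 TPM at P14 and 21.9 ± 1.12 TPM at P0 (0.31, adjusted p = 0.0405), or 0.80 with scaling (adjusted p = 3.24e-05). Dbp was at 25.1 ± 0.165 and 18.9 ± 2.23 TPM at P14 and P0 (0.40, adjusted p = 0.0418), or 0.89 with scaling (adjusted p = 1.11e-04). As deposited the Clock call was lost without any 1 of P0 replicates 1 to 3, P14 replicates 1 and 3 or A6m replicate 1 (adjusted p = 0.0548 to 0.118). The Dbp call was lost without E12.5 replicate 2, P0 replicate 2 or 3, or any P14 library (adjusted p = 0.0519 to 0.120). Both calls were also lost with no filter on low values and with a replicate block (adjusted p = 0.0515 to 0.0807). A pseudocount of 0.1 lost that of Dbp (adjusted p = 0.0505). The count of called members was 3 without any single P0 or P14 library.

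The other calls of this interval depended on the scale. Cry1 was at 6.26 ± 0.256 TPM at P14 and 10.3 ± 0.633 TPM at P0 (log2 difference -0.63, adjusted p = 1.15e-04), against -0.17 with scaling (adjusted p = 0.203) and -0.13 with quantile normalization (adjusted p = 0.342). Per1 was at 8.996 ± 1.32 and 15.1 ± 4.10 TPM at P14 and P0 (-0.67, adjusted p = 0.0183), against -0.20 with scaling (adjusted p = 0.447), and that call was lost without P0 replicate 1 or P14 replicate 2 as well (adjusted p = 0.0748 and 0.0683). Nr1d2 and Tef had differences of 0.01 and -0.00 as deposited (adjusted p = 0.980 and 0.985) and rose with scaling (0.51 and 0.50, adjusted p = 0.00683 and 0.0144). Nr1d1 (-0.22, adjusted p = 0.343), Per2 (0.03, adjusted p = 0.906) and Per3 (-0.30, adjusted p = 0.169) did not pass as deposited or with scaling, though Per3 passed as deposited without E12.5 replicate 1 (adjusted p = 0.0292) and Per2 passed with quantile normalization (0.58, adjusted p = 0.0444). Over the 10 members the median was -0.11, against -0.41 over all tested genes.

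Between P14 and 6 months the REV-ERB genes and Dbp rose again and Arntl fell further, on a scale that hardly shifted. The test called 6 of 10 members, 3 higher and 3 lower at A6m, against 20.9% of all tested genes, 8.78% higher and 12.1% lower. With scaling 3 rose and 4 fell, against 29.1% of all tested genes, 15.2% higher, and 8 of 10 members did not overlap as deposited, against 44.3%. Nr1d1 was at 19.0 ± 5.04 TPM at A6m and 6.75 ± 0.385 TPM at P14 (2.81-fold, log2 difference 1.34, SE 0.19, adjusted p = 6.93e-04). Dbp was at 56.7 ± 9.69 and 25.1 ± 0.165 TPM at A6m and P14 (2.26-fold, log2 difference 1.13, SE 0.15, adjusted p = 4.22e-04), and Nr1d2 at 76.1 ± 4.89 and 38.9 ± 3.75 TPM (1.96-fold, log2 difference 0.95, SE 0.17, adjusted p = 0.00255). Arntl was at 2.75 ± 0.0691 TPM at A6m and 7.39 ± 0.346 TPM at P14 (log2 difference -1.16, SE 0.12, adjusted p = 6.73e-05). Cry1 was at 3.97 ± 0.292 and 6.26 ± 0.256 TPM (-0.55, SE 0.08, adjusted p = 9.00e-04). These 5 calls held under each of the 22 alternatives tried.

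Per1 was at 5.43 ± 1.52 TPM at A6m and 8.996 ± 1.32 TPM at P14 (log2 difference -0.65, adjusted p = 0.0489), a call lost in 11 of 22 alternatives, among them without A6m replicate 2 or 3, any P14 library, E12.5 replicate 2 or 3, or P0 replicate 3 (adjusted p = 0.0562 to 0.169). Per3 was at 5.80 ± 0.885 and 8.74 ± 0.201 TPM at A6m and P14 (-0.53, adjusted p = 0.0627), and it passed with scaling (-0.49, adjusted p = 0.0116) and without E12.5 replicate 1 or 3 (adjusted p = 0.00511 and 0.0290). Clock (-0.05, adjusted p = 0.834), Tef (0.19, adjusted p = 0.514) and Per2 (0.12, adjusted p = 0.710) did not pass. Xist and Ddx3y differed between these ages in every library, and the part of sex in these differences was not tested.

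Over the whole span, A6m against E12.5, all 10 members were called, 7 higher and 3 lower, against 77.2% of all tested genes, 15.2% higher and 62.0% lower. With scaling 7 rose and 2 fell, against 71.2% of all tested genes, 35.4% higher and 35.8% lower, and 9 of 10 members did not overlap as deposited, against 76.9%. Nr1d1 was 16.3-fold, Dbp 11.8-fold and Nr1d2 6.76-fold higher at A6m as ratios of mean TPM (log2 differences 3.19, 3.32 and 2.69, adjusted p = 5.19e-08, 5.55e-09 and 7.15e-08). Tef, Clock and Per2 rose by 1.66, 0.96 and 0.68 (adjusted p = 4.90e-06, 1.42e-05 and 0.00449). Arntl and Cry1 fell by 1.52 and 1.45 on the log2 scale (adjusted p = 4.06e-07 and 3.07e-08), and by 0.80 and 0.70 with scaling (adjusted p = 4.51e-06 and 9.62e-05). Per1 fell as deposited (-0.78, adjusted p = 0.00528), but was at -0.03 with scaling (adjusted p = 0.885), at 0.09 with quantile normalization (adjusted p = 0.705) and at -0.37 without the 10 most abundant genes (adjusted p = 0.134). Per3 passed as deposited (0.45, adjusted p = 0.0385) and with scaling (1.15, adjusted p = 6.82e-06). Its call as deposited was lost without E12.5 replicate 1, A6m replicate 1 or 3, P0 replicate 1 or 3, or any P14 library (adjusted p = 0.0503 to 0.124). No filter on low values, a fit to just the 6 libraries and a replicate block lost it too (adjusted p = 0.05035 to 0.1265). The F-test over the 4 ages called 10 of 10 members, against 85.1% of all tested genes, with adjusted p between 3.78e-08 for Dbp and 0.0165 for Per2.

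Ratios between 2 members of one library do not change when the library is scaled by 1 common factor, though quantile normalization can change them. Several of them, though not all, set the adult apart. Dbp over Arntl was 0.479, 0.438 and 0.543 in the E12.5 libraries, 1.72, 1.19 and 1.28 at P0, 3.26, 3.35 and 3.598 at P14, and 22.9, 16.1 and 22.9 at A6m. Nr1d1 over Arntl was 0.106, 0.113 and 0.133 at E12.5, 0.816, 0.456 and 0.550 at P0, 0.822, 0.917 and 1.01 at P14, and 8.70, 4.90 and 7.17 at A6m. Both ratios ascended through the 4 ages without overlap between any of them, though Nr1d1 over Arntl only just between P0 and P14. Per2 over Arntl, by contrast, overlapped between E12.5 (0.201 to 0.460) and P0 (0.235 to 0.456) and was then 0.522 to 0.654 at P14 and 1.63 to 1.82 at A6m. Cry1 over Arntl was higher at E12.5 (1.12 to 1.66) and A6m (1.36 to 1.52) than at P0 (0.713 to 0.814) and P14 (0.805 to 0.895). Per1 over Arntl at A6m (1.44 to 2.57) overlapped with P0 (0.763 to 1.57). Between paralogs, Per1 over Per3 at A6m (0.840 to 1.07) overlapped with P14 (0.911 to 1.17), as did Nr1d1 over Nr1d2 (0.193 to 0.294 at A6m and 0.154 to 0.197 at P14). Per1 over Per2 was 4.02 ± 1.52 in E12.5 tissue, 3.52 ± 0.318 at P0, 2.07 ± 0.185 at P14 and 1.13 ± 0.293 in A6m tissue (SD, n = 3 each).

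**Figure D3:**
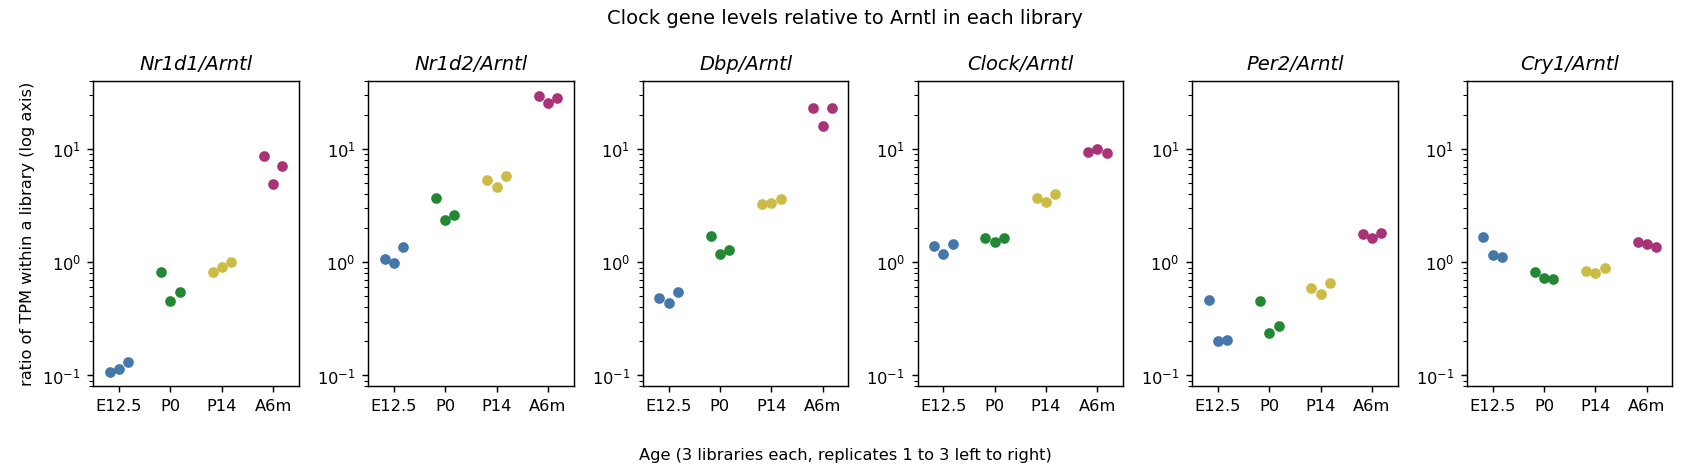
Ratio of TPM of a clock gene to that of Arntl in each library (log axis, the same in all panels), by age, with 1 point per library. Dbp over Arntl lies between 0.438 and 0.543 at E12.5 and between 16.1 and 22.9 at A6m, and Cry1 over Arntl stays between 0.713 and 1.66 at all ages.

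Libraries of one age also differed in their clock genes. Around the means of the ages the residual SD on the log2 scale was 0.28 for Per1, 0.26 for Nr1d1, 0.24 for Tef and for Per3, 0.23 for Nr1d2, 0.22 for Per2 and 0.20 for Dbp, against a median of 0.17 over all tested genes, and it was 0.14 for Arntl and for Clock. At P0, replicate 1 was the highest of the 3 libraries in 6 of the 7 genes Nr1d1, Nr1d2, Dbp, Tef, Per1, Per2 and Per3, with or without scaling, and the lowest in Arntl. That library was highest for 29.8% of all tested genes as deposited and 33.8% with scaling. At A6m, replicate 2 was the lowest in 7 of the 7 and the highest in Arntl, though it was also the lowest for 52.9% of all tested genes. With scaling it was lowest in 5 of the 7 and still highest in Arntl, against 31.8% of all tested genes lowest. Other libraries did not all show this contrast. E12.5 replicate 1 was the lowest in 6 of the 7 (4 with scaling) and in Arntl as well. It was the lowest for 66.6% of all tested genes as deposited and 27.8% with scaling. P14 replicate 2 was the lowest in 6 of the 7 (4 with scaling), with Arntl in the middle as deposited and highest with scaling. That library was the lowest for 52% of all tested genes as deposited and 32.4% with scaling. Ciart, another repressor of the activating pair, had 4.35, 1.54 and 4.13 TPM in A6m replicates 1 to 3 and was thus low in the same library. The size of these differences was modest for Arntl, at most 0.09 from the mean of A6m and 0.10 from that of P0 with scaling. It was larger for Nr1d1, between -0.33 and 0.30 at A6m. With scaling, replicate 2 was the lowest in 6, 4 and 5 of the 7 at P0, P14 and A6m, with Arntl highest each time. These libraries were lowest for 37.9%, 32.4% and 31.8% of all tested genes. P14 replicate 2 was, however, also the highest in 3 of the 7. At E12.5 replicate 2 was the lowest in 0 of the 7, against 32.6% of all tested genes, with Arntl highest too. Replicate 1 was the highest in 6 and 5 of the 7 at P0 and A6m, against 33.8% and 27.9% of all tested genes. It was the highest in 1 at E12.5 and in 1 at P14, against 40.5% and 33.4%. Whether these libraries were dissected at different hours, or same-numbered ones together, was not tested.

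**Figure D4:**
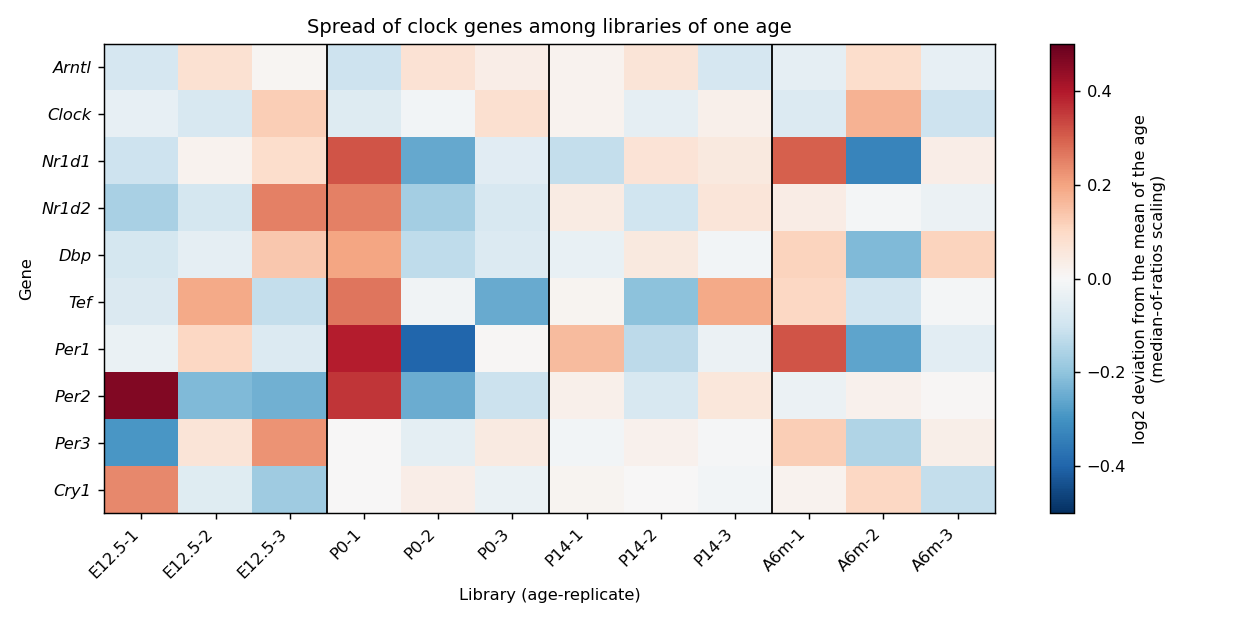
Deviation of each library from the mean of its age on the log2 scale after median-of-ratios scaling, for the 10 clock genes (rows) and 12 libraries (columns, labelled age-replicate, with black lines between ages). Red is above and blue below the mean of the age. In P0 replicate 1 most of the rows from Nr1d1 to Per2 are above the mean and Arntl is below, and in A6m replicate 2 Nr1d1, Dbp and Per1 are below and Arntl above.

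The remaining transcription factors of the loop showed the same contrast between embryo and adult in part. Among other repressors, 2 of 4 rose into P0, both basic helix-loop-helix (DEC) factors that compete for E-boxes, and 0 fell, against 18.6% of all tested genes higher and 43.7% lower. Bhlhe40 had a mean of 1.43 ± 0.412 TPM in E12.5 tissue, 6.50 ± 1.20 at P0, 16.8 ± 1.55 at P14 and 25.0 ± 3.58 in A6m tissue, and rose at each step on each of the 4 scales tried (log2 differences as deposited 1.63, 1.25 and 0.54, adjusted p = 6.61e-06, 9.92e-05 and 0.0354). Bhlhe41 was at 0.670 ± 0.290, 4.09 ± 0.489, 2.88 ± 0.228 and 6.10 ± 0.415 TPM at the same ages, with a rise into P0 (1.62, adjusted p = 2.71e-06) and another at A6m against P14 (0.87, adjusted p = 0.00141). Ciart rose at A6m against P14 (1.01, adjusted p = 0.0364), though A6m replicate 2 (1.54 TPM) lay below P14 replicate 1 (1.74 TPM). Cry2, the other cryptochrome, did not pass at P0 as deposited (-0.01, adjusted p = 0.912) but rose on the other 3 scales (0.25 to 0.31). It fell at A6m against E12.5 as deposited (-0.55, adjusted p = 1.74e-04) and rose with scaling (0.23, adjusted p = 0.00370), so its direction depends on the scale.

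Partners and relatives of the members divided likewise. Npas2, which can stand in for Clock, was at 3.66 ± 0.502 TPM at P0 and 0.203 ± 0.0630 TPM at E12.5 (log2 difference 1.95, adjusted p = 1.82e-06), while Arntl2, the paralog of Arntl, was at 0.891 TPM at A6m and 3.96 TPM at E12.5 (-1.36, adjusted p = 7.82e-05). Of the ROR receptors, which activate through the element that the REV-ERBs repress, Rora was at 12.55 TPM at P0 and 4.97 TPM at E12.5 (1.18, adjusted p = 6.84e-07). Rorb was under the filter on low values, with a mean of at most 0.529 TPM. Hlf, the remaining PAR bZIP gene, was at 22.9 ± 3.00 TPM at P0 and 5.66 ± 2.23 TPM at E12.5 (1.90, adjusted p = 2.24e-05), and was highest at P0 where Dbp was highest at A6m. Nfil3, whose protein E4BP4 represses through D-boxes, had 3.30, 3.39 and 3.31 TPM at A6m, against 10.9, 12.2 and 11.9 TPM at P14 (-1.55, adjusted p = 1.17e-06). Into P0 Nfil3 had risen, as Dbp did (0.36, adjusted p = 0.0043). It fell into P14 (-0.87, adjusted p = 2.19e-05) and again at A6m, intervals in which Dbp rose.

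**Figure D5:**
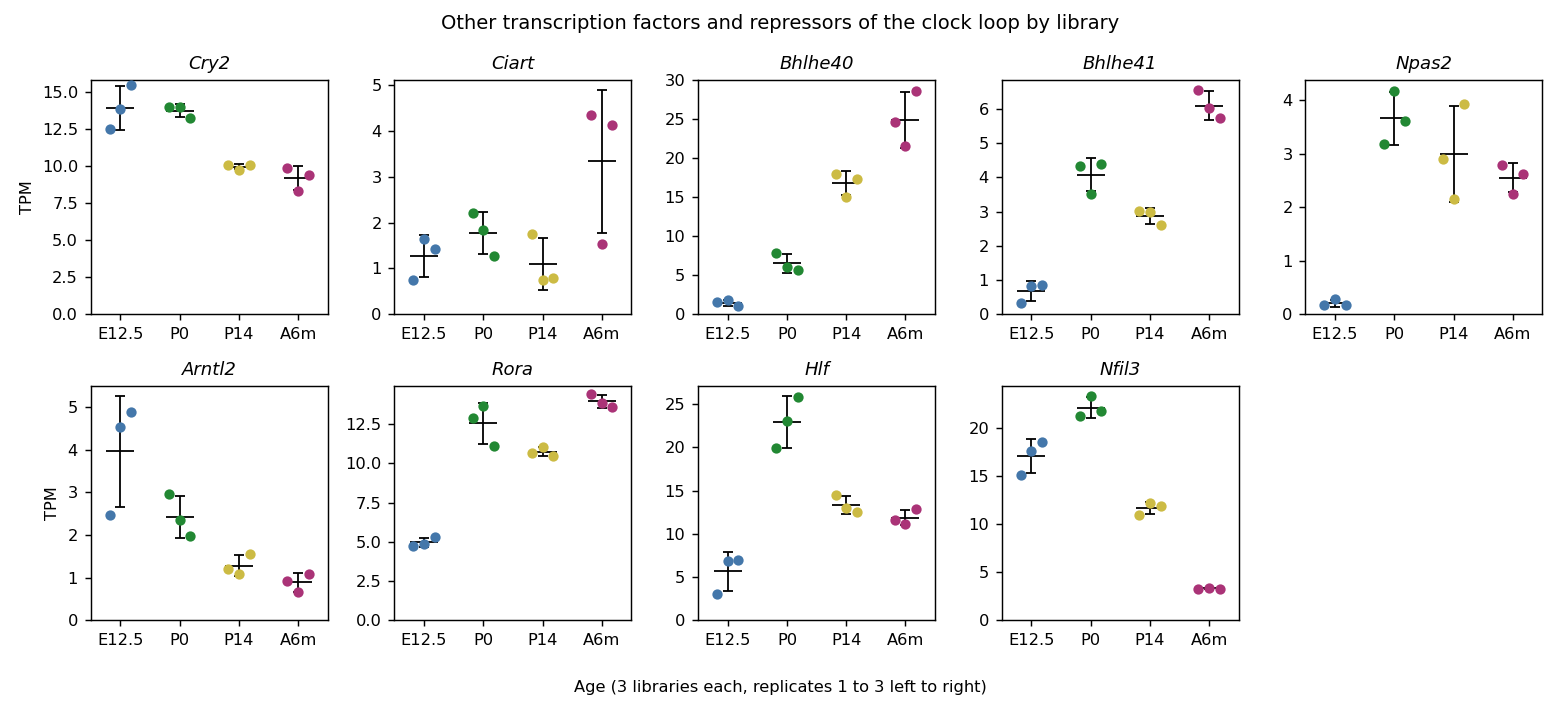
TPM (linear axis from 0) by age of 9 further transcription factors and repressors of the clock loop, with 1 point per library and a bar at the mean ± SD of 3 libraries. Bhlhe40 rises through all ages to between 21.6 and 28.7 TPM at A6m, Nfil3 is lowest at A6m with 3.30 to 3.39 TPM, and Npas2 reaches at most 0.275 TPM at E12.5.

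Counts for genes of enzymes that modify and degrade clock proteins depended on the scale. Of 11 kinases, ligases and associated genes, 2 rose and 5 fell into P0 (18.6% and 43.7% of all tested genes), against 5 and 4 with scaling (29.0% and 31.0%). Between P0 and P14, 0 rose and 9 fell (5.33% and 53.5% of all tested genes), against 2 and 3 with scaling (22.7% and 19.8%). Csnk1e, encoding casein kinase 1 epsilon, which phosphorylates Period proteins, was at 22.5 TPM at P14 and 45.9 TPM at P0 (log2 difference -0.996, adjusted p = 1.77e-05, and -0.50 with scaling). Timeless, which also serves DNA replication, was at 5.03 TPM at P0 and 17.5 TPM at E12.5 (-1.62, adjusted p = 1.38e-05). The 5 markers of dividing cells fell beside it, 5 of 5, against 43.7% of all tested genes. Their sum was 93.7 to 97.0 TPM at P0 and 711 to 769 TPM at E12.5. Usp2, a deubiquitinase gene driven by the clock, was at 51.4 TPM at P0 and 24.9 TPM at E12.5 (1.03, adjusted p = 1.10e-04). Among 10 genes known as clock-controlled outputs, 6 rose and 2 fell into P0 (18.6% and 43.7% of all tested genes). Scaling gave 7 and 2 (29.0% and 31.0%). Into P14, 0 rose and 1 fell as deposited (5.33% and 53.5% of all tested genes), against 6 and 1 with scaling (22.7% and 19.8%), so that count depends on the scale. At A6m against P14, 4 rose and 2 fell (8.78% and 12.1% of all tested genes), and 6 and 1 with scaling. Cdkn1a, a cell-cycle inhibitor gene, was at 8.39 TPM at A6m, against 44.7 TPM at P14 (-2.28, adjusted p = 5.33e-07).

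Per1 also responds to glucocorticoids and to stimuli that induce immediate early genes, and both lists were read beside it. Of 10 glucocorticoid-response genes, 5 rose and 3 fell into P0 (18.6% and 43.7% of all tested genes). Scaling gave 7 and 1 (29.0% and 31.0%). Into P14, 2 rose and 6 fell (5.33% and 53.5% of all tested genes), against 3 and 3 with scaling (22.7% and 19.8%). At A6m against P14, 0 rose and 5 fell (8.78% and 12.1% of all tested genes), and 0 and 5 with scaling. Klf9, a Krüppel-like factor gene, was at 15.3 ± 2.14 TPM at P0 and 1.86 ± 0.372 TPM at E12.5 (log2 difference 2.51, adjusted p = 5.01e-08), and it rose again into P14, with 26.5 ± 1.61 TPM (0.76, adjusted p = 4.92e-04). Sgk1, a kinase gene, was at 155 TPM at P0 and 80.8 TPM at E12.5 (0.96, adjusted p = 4.73e-04) and rose into P14 with 230 TPM (0.57, adjusted p = 0.0141). Others fell into P14. Fkbp5, a cochaperone gene of this response, was at 3.91 TPM at P14 and 26.6 TPM at P0 (log2 difference -2.49, adjusted p = 7.54e-07), Mt2, a metallothionein gene, at 15.9 and 63.6 TPM (-1.95, adjusted p = 2.69e-04) and Zbtb16, a zinc finger gene, at 0.163 and 2.57 TPM (-1.54, adjusted p = 2.83e-04). The summed level of the 10 genes was 248 to 300 TPM in E12.5 tissue, 443 to 488 TPM at P0, 355 to 411 TPM at P14 and 339 to 404 TPM in A6m tissue. Sgk1 had the highest mean of the 10 at each age, 215 TPM at A6m, so the sum leans on that gene. Of 9 immediate early genes tested, 0 rose and 7 fell into P0 (18.6% and 43.7% of all tested genes). Scaling gave 0 and 5 (29.0% and 31.0%), and quantile normalization 0 and 4. The summed level of the list was 33.2 to 37.8 TPM at P0 and 70.5 to 74.4 TPM at E12.5. Of the same 9, 0 rose and 3 fell into P14 (5.33% and 53.5% of all tested genes), against 2 and 1 with scaling. At A6m against P14 2 rose and 2 fell (8.78% and 12.1%), and 2 and 2 with scaling. The part of either response in the Per1 values was not tested.

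Markers of several other cell types in the tissue changed over the same ages. Summed endothelial markers (8 genes) were at 356 to 397, 206 to 272, 81.7 to 109 and 23.1 to 36.7 TPM at E12.5, P0, P14 and A6m. All 8 fell in A6m against P14, against 12.1% of all tested genes. Summed fibroblast markers were at 166 to 237 TPM at A6m and 1003 to 1337 TPM at E12.5. In this comparison 5 of 6 tested genes fell and 1, Dcn, rose (62.0% and 15.2% of all tested genes). Dcn was at 114 TPM at A6m and 43.9 TPM at E12.5 (adjusted p = 1.52e-05). Summed macrophage markers were at 54.9 to 81.6 TPM at A6m, against 50.9 to 62.5 TPM at P14 and 153 to 184 TPM at E12.5. At A6m against P14, 3 of 8 macrophage genes fell and 1, Lyz2, rose (12.1% and 8.78% of all tested genes). Lyz2 was at 37.7 TPM at A6m and 15.5 TPM at P14 (adjusted p = 0.00320). Dcn and Lyz2 were named after their values were seen. Erythroid genes were at 148 to 556 TPM at A6m and 52954 to 59250 TPM at E12.5. Of the mural list, 5 of 6 fell at A6m against P14, against 12.1% of all tested genes. Summed neuron and glia markers were at 18.6 to 71.4 TPM at E12.5 and 22.6 to 59.5 TPM at P0. At P14 and A6m they were at 41.3 to 84.5 and 41.2 to 44.2 TPM. Of the 7 tested, 0 rose and 0 fell at A6m against P14 (8.78% and 12.1% of all tested genes). The part of cell composition in the differences of the clock genes was not tested.

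By root mean square difference of the 4 centred age means on the log2 scale, over 11289 genes averaging 5 TPM or more, the profiles nearest to that of Arntl were those of Snora35 (0.07), Slc35f5 (0.07) and Cacna2d1 (0.09). Snora35 itself passed the test in none of the 4 comparisons (adjusted p = 0.123 to 0.684). Those nearest to Dbp were Shtn1 (0.11), Cacnb4 (0.17) and Cbx7 (0.19). Slc35f5 had means of 34.4, 47.7, 26.2 and 12.8 TPM and Shtn1 of 3.23, 15.6, 17.7 and 37.4 TPM at E12.5, P0, P14 and A6m. Among the members themselves the nearest pairs were Clock with Per2 (0.16), Nr1d1 with Nr1d2 (0.19) and Nr1d1 with Dbp (0.23), and the most distant was Arntl with Dbp (1.78).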

How the data were processed

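The 12 libraries are choroid plexus of 4 ages with 3 libraries each, prepared with the Kapa mRNA HyperPrep kit and read as 100 bp pairs, per the labels. The deposited values are TPM per gene symbol, which the authors computed with kallisto on GRCm38, per the submitters' processing notes. Neither version, annotation release, strand setting nor gene-level summing is given in the sources used here. TPM keeps no read counts, so depth is unknown and no counting interval was computed. A further 7 columns were not used here.

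Genes with at least 1 TPM in at least 3 libraries (17422) were tested as log2(TPM + 1) with limma 3.58.1 in R 4.3.3 (4 age means, 8 residual degrees of freedom, eBayes with trend), with calls where the Benjamini-Hochberg adjusted p was below 0.05; a log2 difference on that scale understates the change of low genes. The labels call the specimens independent, without naming animals. The test was checked on simulated data. The members and lists were chosen with earlier results of these data known. Named genes were all 10 members, all genes of lists of up to 4 (1 is not reported here), and, from longer lists, up to 4 called genes with the largest difference per comparison. The likeness list took the 3 nearest profiles for Arntl and Dbp.

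Tried as alternatives were other pseudocounts (0.1 or 5), testing every gene or those averaging 5 TPM, 3 other scalings (median of ratios on the 19075 genes detected throughout, quantiles, TPM recomputed after dropping the top 10 genes), a fit to just the 6 libraries in question, array weights, a replicate block and each library left out. Coordinates are GENCODE M21 (GRCm38). Promoter windows are RefSeq (GRCm38.p6). Plots used matplotlib 3.10.9.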

Additional observations from a re-analysis of the deposited data

How the results depend on the processing

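Of the 22 alternatives, each applied to the 40 differences of the 10 members (fewer where a gene dropped out), 775 values kept their direction and side of the threshold, 66 lost a call, 13 gained one and 22 turned in direction. The results that held under every alternative were 7 of 10 members for P0 against E12.5 (Arntl, Clock, Nr1d1, Nr1d2, Dbp, Tef and Per3), 1 for P14 against P0 (Arntl), 7 for A6m against P14 (Arntl, Nr1d1, Nr1d2, Dbp, Cry1 and the uncalled Tef and Per2) and 8 for A6m against E12.5 (all but Per1 and Per3).

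With median-of-ratios scaling, log2 differences for P14 against P0 turned to 0.23 for Nr1d1, 0.50 for Tef and 0.16 for Per3, and that of Clock for A6m against P14 turned to 0.005. With quantile normalization they turned to 0.28 for Nr1d1, 0.29 for Tef and 0.18 for Per3 at P14 against P0, to 0.040 for Cry1 at P0 against E12.5 and to 0.087 for Per1 at A6m against E12.5. For Tef at P14 against P0 the value was 0.20 without the 10 most abundant genes and 0.094 with array weights. The count of members called for P14 against P0 was 5, and it was 3 with no filter on low values. The causes were not tested. For all genes called, A6m against P14, the count was 5650 with array weights and 3642 without.

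Leaving out each library gave 8 to 10 members called for P0 against E12.5, 3 to 6 for P14 against P0, 5 to 7 for A6m against P14, 9 to 10 for A6m against E12.5 and 9 to 10 in the F-test. Differences for P14 against P0 then ranged from -0.054 to 0.12 for Nr1d2, from -0.15 to 0.13 for Tef and from -0.077 to 0.20 for Per2. Across all tested genes, same-numbered libraries did not deviate together (correlations of deviations from -0.06 to 0.07). A correlation over all genes cannot decide whether same-numbered libraries shared a session or hour, which was not tested. With the replicate block 3 members were called for P14 against P0. The F-test was not run on 6 libraries, and Per2, under 5 TPM on average, has no value where that mean was required. Depth is unknown, so counting error for low genes such as Per2 and E12.5 Nr1d1 cannot be given.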
